A study of Rattus norvegicus with 24 samples.

Results

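Complex I of the respiratory chain is encoded in part by nuclear genes whose symbols start with Nduf, and the transcripts of these genes were followed in rat tibialis anterior muscle over 30 days of daily resistance training. The members were all genes of the deposited transcript table with such a symbol, with their transcripts added up to 1 value per gene. They came to 45 of the 15273 genes in the table, measured as 49 transcripts: 37 named as subunits, and 8 named as assembly factors (symbols starting with Ndufaf). The symbols Ndufa1, Ndufa10 and Ndufb1 did not occur in that table, although the row labelled Ndufa10l1 came mostly from the locus of Ndufa10, as described below.

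RNA was taken from 12 male Wistar rats with a mean age of 23 weeks, with groups of 3 rats trained for 2, 10, 20 or 30 days. In every rat an implanted pulse generator trained the left hindlimb once a day, with 5 sets of 10 contractions in which the stimulated plantarflexors loaded the dorsiflexors, and the muscle was collected 1 h after the last session. The right tibialis anterior of the same animal was not stimulated and served as contralateral control, so the 24 samples are 12 trained and 12 contralateral muscles. The contralateral muscles are controls within trained rats, and no sedentary rat is among the samples. Whole muscle was sequenced after poly-A selection.

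Complex I takes electrons from NADH, hands them to ubiquinone and pumps protons across the inner mitochondrial membrane. It is shaped like an L, with a matrix arm that holds the NADH site and the iron-sulfur clusters and a membrane arm that moves the protons. Its catalytic core is encoded partly in the nucleus and partly in mitochondrial DNA, the accessory subunits surround the core, and assembly factors help to build the enzyme without staying in it. In muscle, complex I is a main entry point for electrons into oxidative phosphorylation.

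Values are TPM-type, scaled for transcript length and for 1 total per sample, and were rescaled sample by sample with median-of-ratios factors. Levels can therefore be compared between genes, but the sequencing depth and the precision it gives are unknown. Changes are log2 fold changes of (value + 1), which understate the change of low genes. They were tested with limma against the 12 contralateral muscles together, with Benjamini-Hochberg adjustment over all 11203 genes tested, and a gene was called at an adjusted p under 0.05. All 45 members passed the filter on low values. The 4 trained groups share their control muscles, so the days were compared with each other only by direct contrasts.

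The muscles carried the transcripts of their label: 7 skeletal muscle genes (Acta1, Ckm, Mylpf, Tnnt3, Pvalb, Mb and Actn3) were above 0 in every sample, with Acta1 between 19687 and 41368. Of a wider list of 8 muscle markers, 4 were lower at 2 days and none higher, 3 higher and 4 lower at 10 days, 1 and 4 at 20 days, and 1 and 3 at 30 days. Over all genes 15.7%, 16.0%, 11.9% and 11.2% were higher at the 4 days, and 13.1%, 13.0%, 9.37% and 9.52% lower. Counts of 1 in this list and those below are near these shares. Its sum was 76849 to 92155 in contralateral muscles and 73265 to 74747 at 2 days, below all of them. Mitochondrially encoded mRNA made up 43.7% of the total in 1 contralateral muscle (30 days, replicate 1) and 27.8% to 34.6% in the other 11. In trained muscles it was 25.5%, 24.9% and 28.5% at 2 days, 24.1%, 23.4% and 27.4% at 10 days, 33.0%, 31.1% and 35.5% at 20 days and 39.9%, 43.0% and 43.9% at 30 days. The median-of-ratios factors of trained muscles were 1.10, 1.09 and 1.05 at 2 days and 0.916, 0.809 and 0.849 at 30 days. The part of this shift in the results was not tested. Without that contralateral muscle, 8 subunits were lower at 2 days and 19 were higher at 30 days, against 11 and 18 with it. Markers of other cell types were called as well. Of 9 macrophage markers, 7, 8, 9 and 9 were higher at 2, 10, 20 and 30 days, and their summed value was 18.2 to 42.6 in contralateral muscles against 65.1 to 169 at 2 days and 78.1 to 102 at 30 days. Of 5 fibroblast markers, 4, 5, 5 and 5 were higher, with sums of 74.3 to 252 in contralateral muscles, 301 to 498 at 2 days and 355 to 415 at 30 days. Of 5 endothelial markers 1 was lower at 2 days, and 3, 2 and 1 were higher at 10, 20 and 30 days, with sums of 29.0 to 44.8 in contralateral muscles, 26.6 to 34.0 at 2 days and 40.8 to 52.3 at 30 days. No marker of these lists was at 0 in any group. Their part in the results on complex I was not tested, and in whole muscle fewer cells of a type and less RNA per cell cannot be told apart.

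Subunit transcripts were far more abundant than those of the assembly factors. In contralateral muscle the mean level of a subunit ran from 3.24 for Ndufa4l2 to 493 for Ndufa4, with a median of 169, and that of an Ndufaf gene from 6.04 to 34.5, with a median of 13.9. The 37 subunits summed to 6598 ± 783 (SD, n = 12) and the 8 Ndufaf genes to 135 ± 15.3 (SD, n = 12). A few rows need care as to locus. Of the summed value of Ndufv3, a matrix-arm accessory subunit, 41.3% came from a transcript on chromosome 13 where RefSeq (GRCr8) has the pseudogene Ndufv3-ps1, and the rest from chromosome 20. The only transcript labelled Ndufs6 is annotated as a processed pseudogene on chromosome 2. Of the value labelled Ndufa10l1, 96.0% came from a transcript on chromosome 9 that lies between Hdac4 and Cops9, where RefSeq has Ndufa10.

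Promoter sequences are printed here for some of the members described below, each with a match to a motif searched. Other members described below, among them Ndufs3, Ndufv2, Ndufa4 and Ndufc2, had a promoter without any match. Whether the motifs bear on the changes was not tested. Sequences are from RefSeq on GRCr8, from 250 bases before to 50 bases after the start of the gene. Of the 45 members, 40 were searched (33 subunits and 7 Ndufaf genes), with Ndufa10l1 represented by the promoter of Ndufa10. Ndufs6 was left out because its only transcript here is the pseudogene. Members without an entry include Ndufb9, Ndufa8 and Ndufaf6. The cores of 5 motifs were searched on both strands: the NRF1 core (GCGCA and GCGC with any 1 base between them), the ETS core CCGGAAG, the YY1 core AAGATGGC, the ERR element TCAAGGTCA and the E-box CACGTG. Matches are in capitals and the sequences run 5′ to 3′ along the gene's strand. The lines give Ndufa12 at chr7:30658066-30658365 (plus strand), Ndufa5 at chr4:53971186-53971485 (minus), Ndufs5 at chr5:141264353-141264652 (minus) and Ndufv3 at chr20:9613536-9613835 (plus), each with an NRF1 core. They go on with Ndufs1 at chr9:72073556-72073855 (minus), with an ETS core, Ndufs4 at chr2:47794865-47795164 (minus), with a YY1 core, and Ndufaf8 at chr10:105879658-105879957 (plus), with an ETS and a YY1 core.
Ndufa12: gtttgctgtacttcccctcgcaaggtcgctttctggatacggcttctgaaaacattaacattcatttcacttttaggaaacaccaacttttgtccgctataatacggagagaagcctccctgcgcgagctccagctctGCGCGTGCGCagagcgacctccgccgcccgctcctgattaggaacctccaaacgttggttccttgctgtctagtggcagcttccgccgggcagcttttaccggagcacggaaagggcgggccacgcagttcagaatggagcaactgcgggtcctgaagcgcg
Ndufa5: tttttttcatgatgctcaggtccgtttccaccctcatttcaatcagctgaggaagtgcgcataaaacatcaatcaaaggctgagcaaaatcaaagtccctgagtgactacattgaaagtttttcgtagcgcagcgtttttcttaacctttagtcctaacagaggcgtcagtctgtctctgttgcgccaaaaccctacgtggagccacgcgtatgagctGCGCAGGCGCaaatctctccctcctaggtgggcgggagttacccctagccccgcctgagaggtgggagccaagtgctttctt
Ndufs5: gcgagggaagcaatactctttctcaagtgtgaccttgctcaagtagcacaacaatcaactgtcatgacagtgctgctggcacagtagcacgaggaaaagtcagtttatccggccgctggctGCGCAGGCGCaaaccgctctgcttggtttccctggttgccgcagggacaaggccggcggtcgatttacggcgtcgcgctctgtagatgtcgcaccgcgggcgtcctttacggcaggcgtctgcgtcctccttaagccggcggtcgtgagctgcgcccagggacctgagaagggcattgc
Ndufv3: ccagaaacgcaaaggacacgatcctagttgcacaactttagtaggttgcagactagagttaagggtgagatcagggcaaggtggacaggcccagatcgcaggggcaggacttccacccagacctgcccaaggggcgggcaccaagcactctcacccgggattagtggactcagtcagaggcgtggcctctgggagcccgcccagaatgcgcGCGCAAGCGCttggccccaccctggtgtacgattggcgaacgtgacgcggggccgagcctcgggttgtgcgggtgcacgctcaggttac
Ndufs1: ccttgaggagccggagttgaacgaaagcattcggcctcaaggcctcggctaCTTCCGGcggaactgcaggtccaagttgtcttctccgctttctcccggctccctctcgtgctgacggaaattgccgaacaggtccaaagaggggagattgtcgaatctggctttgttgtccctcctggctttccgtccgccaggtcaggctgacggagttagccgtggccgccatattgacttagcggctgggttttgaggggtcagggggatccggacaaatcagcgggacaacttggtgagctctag
Ndufs4: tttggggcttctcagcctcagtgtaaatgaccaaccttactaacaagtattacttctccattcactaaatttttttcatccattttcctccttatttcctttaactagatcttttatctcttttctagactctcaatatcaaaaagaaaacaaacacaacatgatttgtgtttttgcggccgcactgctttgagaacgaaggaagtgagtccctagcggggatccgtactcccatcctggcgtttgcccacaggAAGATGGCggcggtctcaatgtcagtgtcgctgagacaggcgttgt
Ndufaf8: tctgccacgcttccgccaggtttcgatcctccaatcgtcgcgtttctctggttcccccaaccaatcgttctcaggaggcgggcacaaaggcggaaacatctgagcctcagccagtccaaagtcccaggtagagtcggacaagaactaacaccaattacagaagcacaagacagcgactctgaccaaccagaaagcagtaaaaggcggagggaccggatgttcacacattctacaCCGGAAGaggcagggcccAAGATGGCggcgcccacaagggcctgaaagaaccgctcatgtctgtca

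The NRF1 core stood in 6 of 33 subunit promoters (18.2%) and in 2 of 7 Ndufaf promoters (28.6%). It stood in 4.25% of all 33469 promoters and in 5.67% of the 21851 promoters of protein-coding genes. The member promoters searched were all of the protein-coding kind. The 6 subunits were Ndufa11, Ndufa12, Ndufa5, Ndufb4, Ndufs5 and Ndufv3. The YY1 core was found in 8 subunit promoters (24.2%), against 3.17% of all and 3.67% of protein-coding promoters. The ETS core was found in 6 (18.2%), against 8.75% and 10.7%. The E-box stood in 2 subunit promoters (6.06%), against 6.42% of all and 7.02% of protein-coding promoters. The ERR element stood in none of the 33, against 0.433% and 0.366%. No matches of different motifs overlapped in the 40 member promoters. In Ndufaf8 the ETS core begins 16 bases before the first base of the gene and the YY1 core 2 bases after it. In Ndufs4 the YY1 core begins 4 bases after the first base. A match describes the letters only.

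After 2 days of training, the subunit transcripts were lower than in contralateral muscle, in the core as well as in both arms. Of 37 subunits, 11 fell and 0 rose, where 13.1% of all tested genes were lower and 15.7% higher. The median log2 fold change of the subunits was -0.28, against -0.01 over all genes, and 36 of 37 values were below 0. The exception was Ndufa4l2. The summed subunit value was 5633, 4876 and 5575 in the 3 trained muscles, all below the lowest of the 12 contralateral muscles (5689). In the 3 animals, 1, 1 and 2 of the 37 subunits were higher in the trained than in the own contralateral muscle.

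In the core, Ndufs1, Ndufs3 and Ndufv2 fell at 2 days. Ndufs1, which carries iron-sulfur clusters of the matrix arm (rn6 chr9:69919867-69953183), had a value of 195, 108 and 149 in the trained muscles, against a lowest of 203, a median of 230 and a highest of 248 in contralateral muscles. All 3 trained muscles lay below all controls, with replicate 2 the lowest. The log2 fold change was -0.63 (SE 0.12, adjusted p = 0.000223). Ndufs3, a core subunit of the part that reduces ubiquinone, had values of 175, 120 and 164 against 185 to 261 (median 209), again with no overlap, and a change of -0.49 (SE 0.12, adjusted p = 0.00243). Ndufv2, an iron-sulfur subunit next to the NADH site, had values of 309, 264 and 303, and its contralateral values of 291 to 449 overlapped them. Its change of -0.31 had an adjusted p of 0.047, and 0.0715 with animals as a block. Of the other core subunits, Ndufs7, Ndufs8 and Ndufv1 had changes of -0.28, -0.31 and -0.25 and were not called, although Ndufs7 and Ndufs8 were called with animals as a block (adjusted p = 0.0385 and 0.00863).

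In the accessory subunits at 2 days, 3 of 9 in the matrix arm and 5 of 18 in the membrane arm fell. Ndufv3 changed most: its values were 153, 135 and 138 in trained muscles, all under the contralateral range of 188 to 277 (median 216), with a log2 fold change of -0.66 (SE 0.12, adjusted p = 0.000186). With the chromosome 20 transcripts alone, an alternative chosen after the data were seen, that change was -0.55 (adjusted p = 0.00046). Ndufa9, also of the matrix arm, changed by -0.44 (adjusted p = 0.00331) and Ndufs6, the pseudogene row, by -0.56 (adjusted p = 0.0259). In the membrane arm, Ndufc1 had values of 20.0, 17.2 and 23.2 against 18.9 to 41.2 (median 33.7), which overlap, and changed by -0.58 (adjusted p = 0.0428, and 0.18 with animals as a block). Ndufa10l1 fell by 0.52 on the log2 scale (adjusted p = 0.000615) and Ndufb3 by 0.42 (adjusted p = 0.00552). Ndufc2 had values of 88.9, 82.6 and 91.2, below the contralateral range of 94.5 to 149, and Ndufb5 had 127, 115 and 120 against 123 to 201. Their changes were -0.36 and -0.35 (adjusted p = 0.0212 and 0.0475, and 0.0557 and 0.0904 with animals as a block).

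Without overlap, 8 subunits at 2 days had all 3 trained muscles below all 12 contralateral muscles, where 6.0% of all genes did: Ndufa10l1, Ndufa9, Ndufb11, Ndufb6, Ndufc2, Ndufs1, Ndufs3 and Ndufv3. In 34 of 37 subunits the trained muscle was below its own contralateral muscle in 3 of 3 animals, against 28.4% of all genes. The count of 11 was 7 on the values as deposited, without the median-of-ratios factor. It was 3 without replicate 2 of the trained muscles and 6 without replicate 3.

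**Figure D1:**
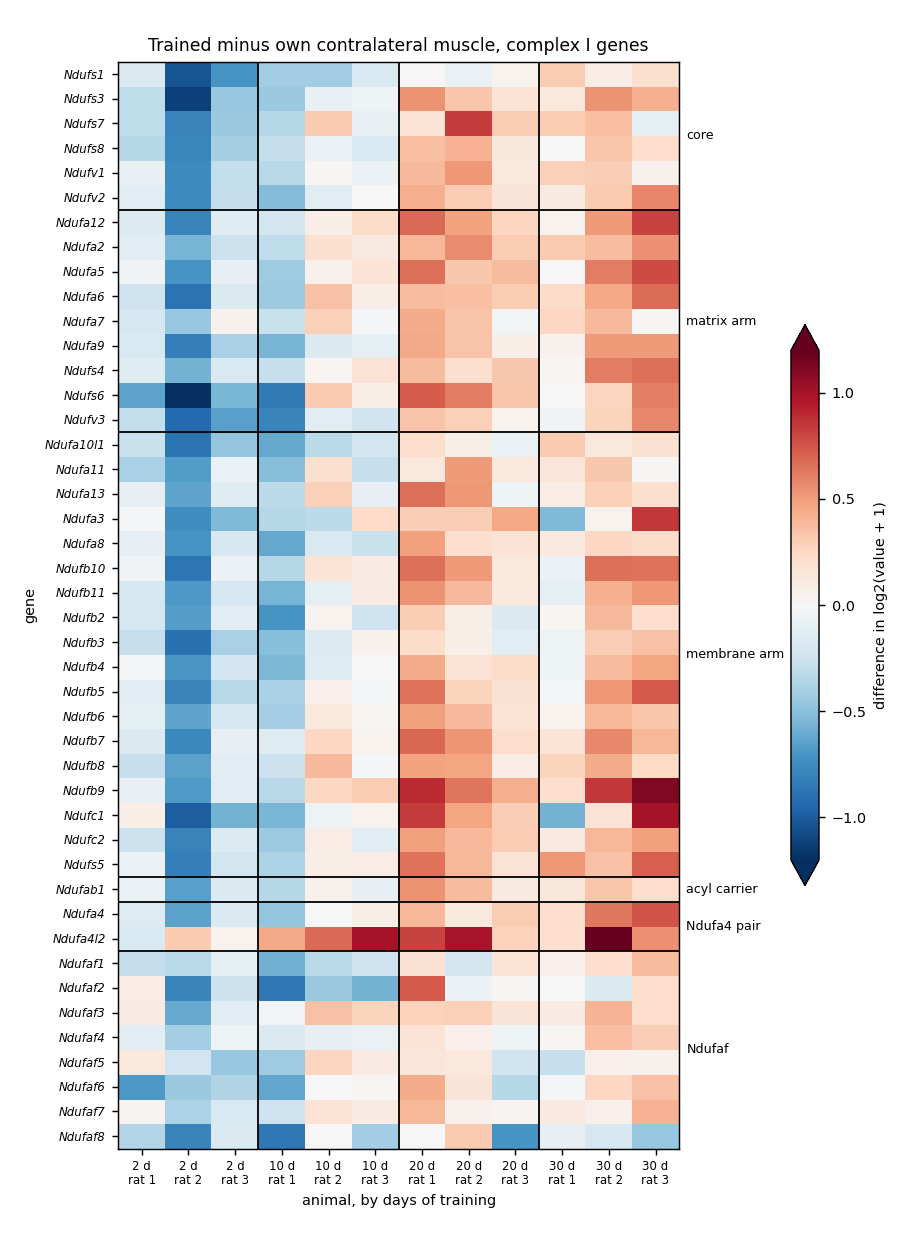
Difference in log2(value + 1) between the trained and the contralateral muscle of each of the 12 rats (columns, by day of training) for 44 of the 45 complex I genes (rows, grouped by role), with colours capped at 1.2 in either direction. At 2 days nearly all subunit rows are on the lower side in the 3 rats, at 20 and 30 days most are on the higher side, and at 10 days rat 1 differs from rats 2 and 3.

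After 10 days, the subunits were near the level of the contralateral muscles. Of 37 subunits, Ndufa4l2 rose and Ndufv3 fell, where 16.0% of all genes were higher and 13.0% lower. The median log2 fold change was -0.07, against -0.02 over all genes, and turned to 0.04 on the values as deposited and to 0.02 without replicate 1 of the trained muscles. The 3 animals differed: 1, 23 and 18 of 37 subunits were higher in the trained than in the own contralateral muscle. In 3 of 3 animals 1 subunit was higher and 8 were lower, against 25.6% and 26.5% of all genes. The summed subunit value was 5658, 6750.2 and 6450.4 in trained muscles and 7587, 6490.2 and 6453 in their contralateral muscles. Ndufv3 had values of 159, 191 and 193, of which the first lay below the contralateral range and the others inside it, and a change of -0.32 (adjusted p = 0.0494). It was not called with animals as a block (adjusted p = 0.114) nor from the chromosome 20 transcripts alone (0.0851). The direct contrast of 10 against 2 days called 0 of the 45 genes, with 8 at an unadjusted p under 0.05, where 1.13% of all genes were called higher and 0.893% lower. Without replicate 1 of the trained 2-day muscles it called 1.

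After 20 days, 2 of 37 subunits rose and 0 fell against all 12 contralateral muscles, where 11.9% of all genes were higher and 9.37% lower. The median was 0.17, against -0.02 over all genes. Ndufb9, a membrane-arm accessory subunit with an LYR motif (rn6 chr7:98813040-98819453), had values of 732, 602 and 590 against 384 to 600 (median 435). Replicates 1 and 2 lay above all contralateral muscles and replicate 3 inside their range. The log2 fold change was 0.48 (SE 0.13, adjusted p = 0.0077). The other called gene was Ndufa4l2, described below. Within animals the difference was wider: 37, 36 and 32 of 37 subunits were higher in the trained muscle, and 31 of 37 were higher in 3 of 3 animals, where 25.0% of all genes were. The contralateral muscles of these 3 rats had sums of 5986, 5689 and 5971, in the lower part of the 5689 to 8223 seen over all 12. With animals as a block the median was 0.35 and 4 subunits were called (Ndufa2, Ndufb7, Ndufb9 and Ndufa4l2). In that fit 1124 of the 11203 genes tested were higher. The count of 2 was 0 without replicate 1 of the trained muscles, 1 without replicate 2, 6 without replicate 3 and 5 without the contralateral muscle of the 2-day replicate 2. Against 10 days, 0 of the 45 genes were called and 10 had an unadjusted p under 0.05, where 0.0357% of all genes were called higher and 0.134% lower.

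**Figure D2:**
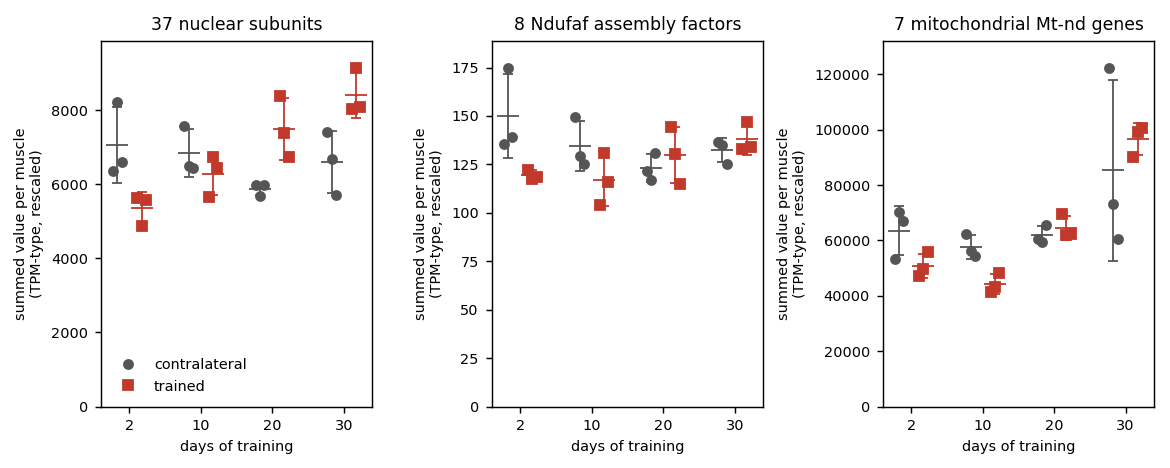
Summed TPM-type value per muscle of the 37 subunits, the 8 Ndufaf genes and the 7 mitochondrially encoded Mt-nd genes (y axes, linear, from 0) in contralateral and trained muscles by day of training, with points for muscles and the mean ± SD of 3. Subunit sums are 4876 to 5633 in trained muscles at 2 days and 8036 to 9146 at 30 days, while the 12 contralateral muscles lie between 5689 and 8223.

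After 30 days, the subunit transcripts were higher than in contralateral muscle, in the core and in the accessory subunits of both arms. Of 37 subunits, 18 rose and 0 fell, where 11.2% of all genes were higher and 9.52% lower. The median log2 fold change was 0.34, against -0.01 over all genes, and all 37 values were above 0, of which 26 also were on the values as deposited. The summed value was 8036, 9146 and 8086. The 30-day trained muscles thus stood above 11 of the 12 contralateral muscles, with replicate 2 also above the highest (8223).

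The subunits with the largest changes at 30 days were Ndufb9, Ndufa5 and Ndufa4. Ndufb9 had values of 689, 859 and 840 against 384 to 600, with no overlap, which is 1.72-fold and a log2 fold change of 0.79 (SE 0.13, adjusted p = 8.53e-05). It was also called with animals as a block (0.72, adjusted p = 0.0231) and on the values as deposited (0.57, adjusted p = 0.000114). Ndufa5, a matrix-arm accessory subunit, had values of 233, 301 and 240 against 124 to 237 (median 167). Replicate 1 lay just inside the contralateral range and the others above it, and the change was 0.57 (SE 0.16, adjusted p = 0.0118, and 0.102 with animals as a block). Ndufa12, Ndufb5, Ndufs4 and Ndufs5 followed with changes of 0.46 to 0.49. Ndufs5 had values of 108, 107 and 105, a narrow spread above the contralateral range of 59.8 to 103, with a change of 0.46 (adjusted p = 0.0118, and 0.0425 with animals as a block).

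In the core, 2 of 7 subunits rose at 30 days, and in the accessory groups 7 of 9 in the matrix arm and 8 of 18 in the membrane arm. Ndufs3 had values of 260, 296 and 255 against 185 to 261, and Ndufv2 had 425, 497 and 436 against 291 to 449. Each overlapped the contralateral range, with changes of 0.34 (adjusted p = 0.0389, and 0.155 with animals as a block) and 0.32 (adjusted p = 0.0469, and 0.167). Ndufs1 was back in its contralateral range or just above it, with values of 255, 253 and 231 and a change of 0.12 that was not called (adjusted p = 0.529). Median changes were 0.15 in the core, 0.42 in the matrix-arm accessory subunits and 0.33 in the membrane-arm accessory subunits. The difference between these groups was not tested. Ndufab1, the mitochondrial acyl carrier protein, had a change of 0.24 and was not called (adjusted p = 0.121). Ndufv3 had 267, 313 and 298 against 188 to 277 and a change of 0.37 (adjusted p = 0.0273, and 0.324 with animals as a block), which was 0.24 and not called (adjusted p = 0.129) from chromosome 20 alone. The smallest called changes were 0.30 for Ndufb6 (146, 168 and 146 against 113 to 157), 0.32 for Ndufv2 and 0.33 for Ndufb4 (226, 263 and 223 against 161 to 235), none of them called with animals as a block.

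Without overlap, 6 subunits had all 3 trained muscles above all 12 contralateral muscles at 30 days, where 7.56% of all genes did: Ndufa12, Ndufa2, Ndufa4, Ndufa9, Ndufb9 and Ndufs5. Within animals 28 of 37 subunits were higher in 3 of 3, against 22.5% of all genes. Of the subunits called at 30 days, 17 had a promoter entry and 5 of these held the NRF1 core shown above (29.4%). Of the 16 not called, 1 held it, Ndufa11 (6.25%). The 5 include Ndufv3, whose promoter is that of the chromosome 20 locus, from which alone it was not called. Whether the motif and the calls go together was not tested. The YY1 core stood in 4 of the 17 and 4 of the 16, the ETS core in 3 and 3, the E-box in 0 and 2 and the ERR element in 0 and 0. The count of 18 depends on the fit. It was 5 on the values as deposited (Ndufb9, Ndufa5, Ndufa4, Ndufa12 and Ndufb5), where the median of all genes was -0.18 and that of the subunits 0.12, which is 0.30 above all genes, as against 0.34 above them with the factor. It was 4 with animals as a block (Ndufb9, Ndufa4, Ndufs5 and Ndufa4l2), where 816 of the 11203 genes tested were higher. The count was 4 against the contralateral muscles of the same day, 3 without replicate 2 of the trained muscles and 10 without replicate 3.

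**Figure D3:**
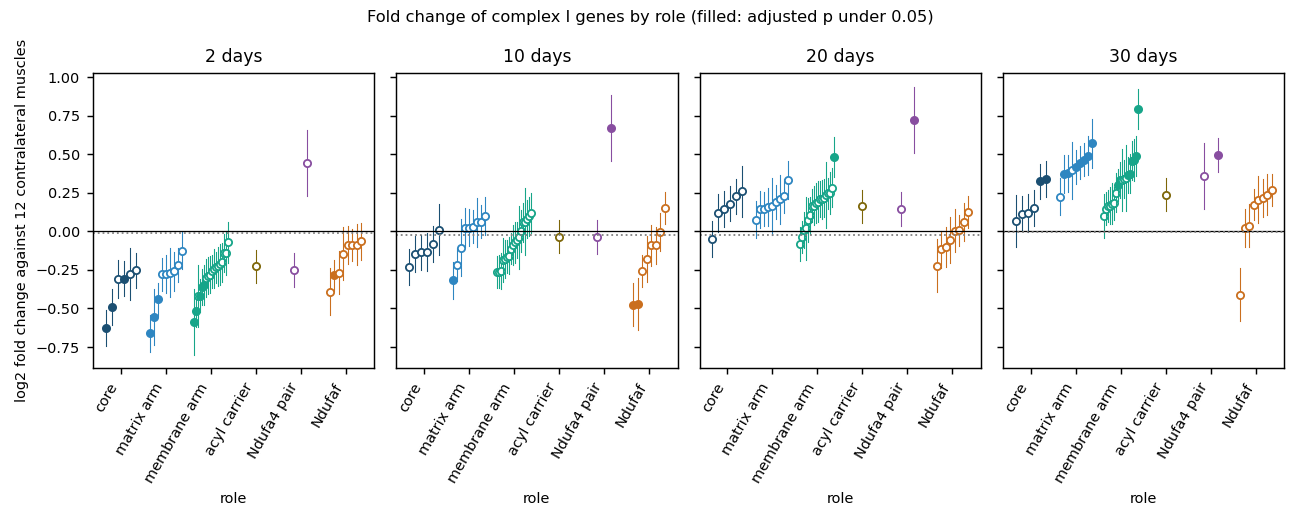
Log2 fold change of (value + 1) against the 12 contralateral muscles (y axis, with SE) of 44 of the 45 complex I genes at 2, 10, 20 and 30 days, arranged by role, where filled points have an adjusted p under 0.05 and the dotted line is the median of all genes. At 2 days the filled points lie below 0 and at 30 days all filled points lie above 0, with Ndufb9 the highest at 0.79.

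Between 2 and 30 days, the contrast of the trained muscles themselves covered most of the subunits. Of 37 subunits, 29 were higher at 30 than at 2 days and 0 lower, where 6.98% of all genes were higher and 8.07% lower. The median difference was 0.65, against -0.01 over all genes. By role, 4 of 7 core subunits, 8 of 9 matrix-arm and 15 of 18 membrane-arm accessory subunits were called, as was Ndufab1 (0.46, adjusted p = 0.0219). The largest differences were those of Ndufb9 (1.04, adjusted p = 0.000176) and Ndufv3 (1.03, adjusted p = 9.01e-05), and both missed the threshold with animals as a block (adjusted p = 0.0553 and 0.0554). Ndufs1 differed by 0.74 (adjusted p = 0.00137) and Ndufs3 by 0.83 (adjusted p = 0.000536). With 2 Ndufaf genes the calls came to 31 of 45, all higher. On the values as deposited they were 16, of which 15 subunits were higher and Ndufaf8 lower. Of all 11262 genes tested so, 250 were higher and 3044 lower. The median of all genes was then -0.27 and that of the subunits 0.32. The calls were 14 with controls of the same day, 20 without replicate 2 of the trained 2-day muscles, and 7 with animals as a block (Ndufs8, Ndufa2, Ndufa10l1, Ndufs5, Ndufs1, Ndufa4 and Ndufs3). In the same-day and block fits this contrast is another quantity. It is the change against same-day or own contralateral muscles at 30 days less that at 2 days. Between 20 and 30 days, 0 of the 45 genes were called and 1 had an unadjusted p under 0.05, where 0.00893% of all genes were called higher and 0.0268% lower.

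**Figure D4:**
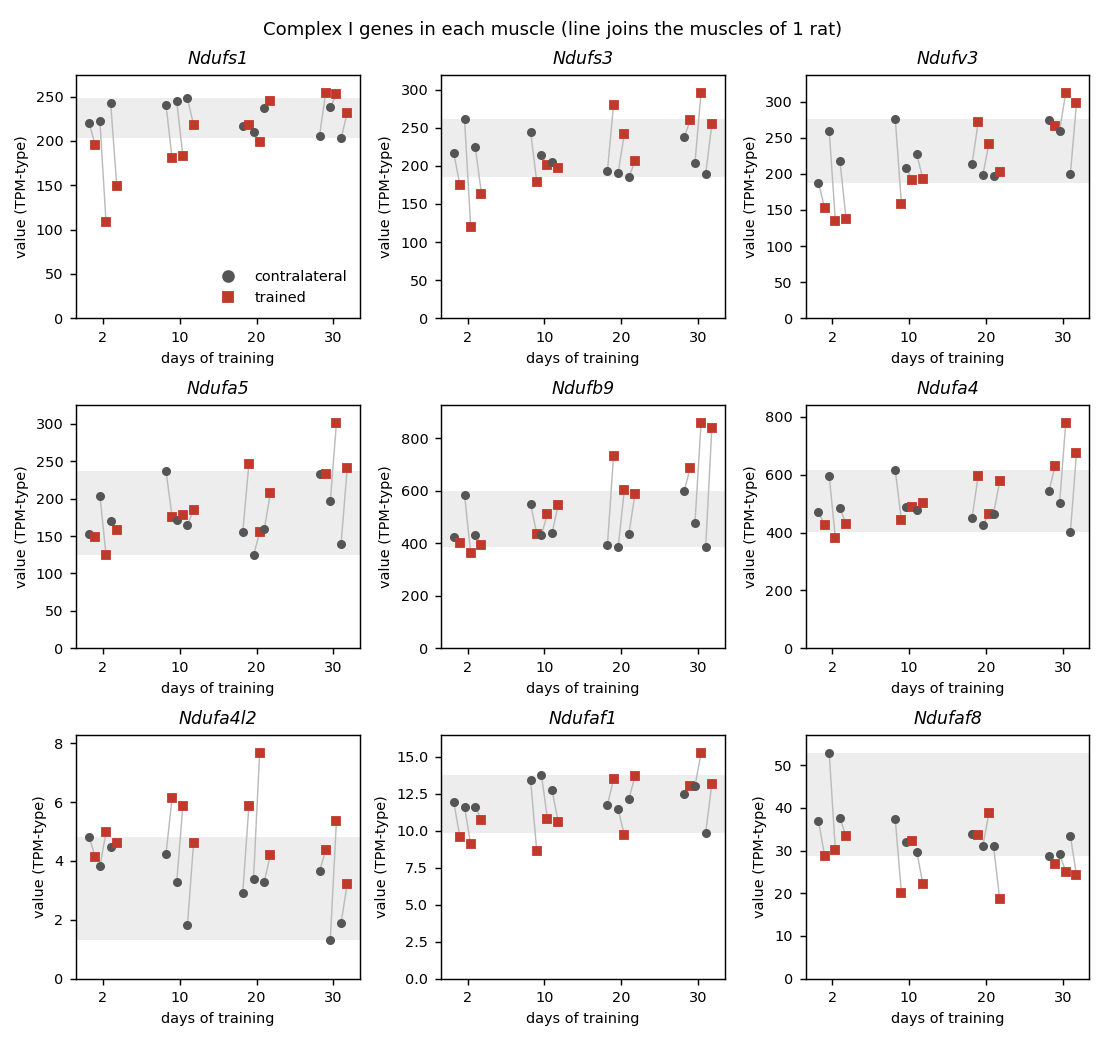
TPM-type value per muscle (y axis, linear) of 9 complex I genes in contralateral and trained muscles by day, with lines that join the muscles of 1 rat and a grey band for the range of the 12 contralateral muscles. Ndufs1 and Ndufs3 lie below the band at 2 days, Ndufb9 and Ndufa4 above it at 30 days, Ndufaf8 below it at 30 days, and Ndufa4l2 in its upper part or above it at 10 and 20 days.

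Ndufa4 and Ndufa4l2 are paralogs with unlike courses. Ndufa4, named after complex I but regarded as a subunit of cytochrome c oxidase (rn6 chr4:38233680-38240849), had values of 425, 381 and 429 at 2 days, 443, 487 and 503 at 10 days, 595, 465 and 576 at 20 days and 629, 779 and 674 at 30 days. Its contralateral values ran from 400 to 614.5 (median 482). It was above all of them only at 30 days, where it rose by 0.50 on the log2 scale (SE 0.11, adjusted p = 0.00242, and 0.0324 with animals as a block). Changes at the earlier days were -0.25, -0.04 and 0.15 and were not called (adjusted p = 0.0928, 0.843 and 0.393).

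Ndufa4l2, known as a hypoxia-inducible paralog of Ndufa4, was the least abundant subunit gene. Its contralateral values ran from 1.32 to 4.81 (median 3.33). The trained values were 4.13, 4.97 and 4.61 at 2 days, 6.14, 5.86 and 4.62 at 10 days, 5.85, 7.67 and 4.19 at 20 days and 4.36, 5.36 and 3.22 at 30 days. At 10 and 20 days replicates 1 and 2 lay above all contralateral muscles and replicate 3 inside their range. It rose at 10 days (0.67, SE 0.21, adjusted p = 0.0209) and at 20 days (0.72, adjusted p = 0.0168), while 0.44 at 2 days and 0.36 at 30 days were not called (adjusted p = 0.125 and 0.256). With animals as a block the 30-day change was 0.74 and called (adjusted p = 0.0358). Against the contralateral muscles of the same day the 20-day change was not called (adjusted p = 0.0537). Its difference between 30 and 2 days was -0.09, where 36 other subunits had values above 0.

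Of the 8 Ndufaf assembly factors, Ndufaf1 fell at 2 days and Ndufaf2 and Ndufaf8 fell at 10 days. Limma called 0 at 20 and at 30 days, where 0 and 2 had an unadjusted p under 0.05. Over all genes 13.1%, 13.0%, 9.37% and 9.52% were lower at the 4 days, and 15.7%, 16.0%, 11.9% and 11.2% higher. The count at 2 days is near that share, and 8 genes are too few to tell counts of 0 from these shares. Median changes were -0.12, -0.14, -0.03 and 0.19 at the 4 days, the last of which was -0.02 on the values as deposited. The summed value was 122, 117 and 119 at 2 days, 104, 131 and 116 at 10 days, 144, 130.2 and 115 at 20 days and 133, 147 and 134 at 30 days. In 3 of 3 animals, 4 of 8 were lower at 2 days, 3 lower at 10 days, 2 higher at 20 days, and 4 higher and 1 lower at 30 days (23.3% of all genes were lower). Whether subunits and Ndufaf genes differ was not tested.

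Ndufaf1, a factor of the complex that assembles the membrane arm, had values of 9.55, 9.06 and 10.7 at 2 days against 9.86 to 13.8. Replicate 3 was inside the contralateral range and the others below it, and the change was -0.28 (SE 0.10, adjusted p = 0.0366). It was not called with animals as a block (adjusted p = 0.178) nor as deposited (0.244), while Ndufaf6 was called with the block (-0.50, adjusted p = 0.0438, against -0.39 and 0.053). At 10 days its values were 8.64, 10.8 and 10.6, with a change of -0.26 (adjusted p = 0.0577, and 0.04 with animals as a block). At 20 and 30 days all values were between 9.69 and 15.2. The count at 2 days was 0 without replicate 1 of the trained muscles, and 2 without replicate 3 of the 2-day or replicate 1 of the 20-day contralateral muscles.

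Ndufaf2, a late assembly factor and paralog of the subunit Ndufa12, fell at 10 days. Its values were 8.58, 11.6 and 8.91, of which 2 lay below the contralateral range of 9.37 to 18.8 (median 13.4). The change was -0.48 (SE 0.14, adjusted p = 0.0118), also called with animals as a block (-0.62, adjusted p = 0.0269). At 30 days Ndufaf2 had values of 15.2, 12.9 and 14.4, inside the contralateral range, while its paralog Ndufa12 rose, with 287, 330 and 314 (0.49, adjusted p = 0.007, and 0.0954 with animals as a block).

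Ndufaf8, the partner of Ndufaf5 in the modification of Ndufs7, was low in trained muscle at 10 and 30 days. Its values were 20.1, 32.2 and 22.1 at 10 days, with replicates 1 and 3 below the contralateral range of 28.8 to 52.9 (median 32.8), and the change was -0.47 (SE 0.17, adjusted p = 0.0408, and 0.15 with animals as a block). At 30 days the values were 26.9, 25.1 and 24.2, all below the 12 contralateral muscles, where 6.08% of all genes were so. The change of -0.41 was not called (adjusted p = 0.0911). It was called on the values as deposited (-0.63, adjusted p = 0.00676), where 2590 of 11262 genes were lower and the median of all genes was -0.18. The count of 2 Ndufaf genes at 10 days was 0 without replicate 1 or without replicate 3 of the trained muscles, and 1 without the contralateral muscle of 2-day replicate 1, 2-day replicate 3 or 10-day replicate 1. The count of 0 at 30 days was 1 without the contralateral muscle of 2-day replicate 2.

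Between 2 and 30 days Ndufaf1 and Ndufaf6 were higher (0.46, adjusted p = 0.0163, and 0.60, adjusted p = 0.0343). Neither was called with animals as a block (adjusted p = 0.157 and 0.118). Ndufaf3 and Ndufaf4, which act on the matrix arm, Ndufaf5, and Ndufaf7, a methyltransferase, were not called at any day, with changes from -0.12 to 0.27.

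Other factors that assemble complex I under names outside the Nduf series were lower early in training. Of 11 (Acad9, Dmac1, Dmac2, Ecsit, Foxred1, Nubpl, Oxa1l, Timmdc1, Tmem126b, Tmem186 and Tmem70), the numbers that fell were 7, 4, 1 and 1 in the order of the days, and 0 rose. Over all genes 13.1%, 13.0%, 9.37% and 9.52% were lower, so the counts at 20 and 30 days are near the share of all genes. On the values as deposited 4, 2, 0 and 1 fell, and 1 (Timmdc1) rose at 2 days. Of all 11262 genes tested so, 731, 682, 745 and 2590 were lower, and 2132 were higher at 2 days. Median changes were -0.42, -0.19, -0.09 and 0.02, the last of which was -0.19 on the values as deposited. Tmem70, which also serves the assembly of ATP synthase, changed by -0.75 at 2 days and -0.76 at 10 days. Ecsit, a partner of Ndufaf1, changed by -0.57 and -0.30, Tmem186 by -0.44 and -0.41, and Dmac1, a factor of the distal membrane arm, by -0.45 and -0.46. At 2 days Tmem126b (-0.45), Dmac2 (-0.42) and the insertase Oxa1l (-0.37) fell as well. Tmem186 fell at 20 days (-0.26) and Oxa1l at 30 days (-0.33). With animals as a block these last calls were lost, as were those of Tmem126b at 2 days (adjusted p = 0.0514) and Ecsit at 10 days (0.148). Between 2 and 30 days Tmem70, Dmac2, Tmem126b, Ecsit and Tmem186 were higher by 0.38 to 0.71, of which 0 were called with animals as a block. As deposited, 1 factor was higher and 1 lower in that contrast, where 250 of 11262 genes were higher and 3044 lower.

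The 7 complex I subunits encoded in mitochondrial DNA were also measured. At 2 days 1 of 7 fell (Mt-nd4l, -0.63, adjusted p = 0.0197), at 10 days 6 fell, at 20 days 0 were called, and at 30 days 5 rose. Over all genes 13.1% were lower at 2 days, 13.0% lower at 10 days and 11.2% higher at 30 days. Median changes were -0.41, -0.61, -0.05 and 0.56, and the contrast of 10 against 2 days called 0 of 7. The largest decrease was that of Mt-nd6 at 10 days (-0.95, adjusted p = 0.000685), which was the only one called with animals as a block (-0.69, adjusted p = 0.0251). The increases at 30 days were 0.56 for Mt-nd1, 0.65 for Mt-nd2, 0.73 for Mt-nd3, 0.51 for Mt-nd4 and 0.70 for Mt-nd4l, and 0 were called with animals as a block. The summed value was 90046, 99097 and 100697 in the 30-day trained muscles. The contralateral muscle of replicate 1 had 122391, above all trained muscles, and the other 11 had 53457 to 73106. Without that muscle 5 fell at 2 days, 6 fell at 10 days and 6 rose at 30 days.

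Subunits of complexes II to V, the other enzymes of oxidative phosphorylation, gave counts of the same kind. Of 39, 15 fell at 2 days, 1 rose and 3 fell at 10 days, 4 rose at 20 days and 22 rose at 30 days. Over all genes 13.1% were lower at 2 days, and 16.0% were higher and 13.0% lower at 10 days. The shares higher at 20 and 30 days were 11.9% and 11.2%. Median changes were -0.29, -0.08 (0.04 on the values as deposited), 0.18 and 0.39, beside -0.28, -0.07, 0.17 and 0.34 for the complex I subunits. With animals as a block 12 fell at 2 days and 4 rose at 30 days. As deposited, 9 fell and 1 rose at 2 days, 3 rose and 0 fell at 10 days, 9 rose at 20 days and 9 rose at 30 days. Of all 11262 genes tested so, 731 were lower at 2 days and 682 at 10 days. At the 4 days 2132, 2096, 1163 and 647 were higher. Of 6 slow fiber markers, 3, 1, 0 and 0 were lower at the 4 days, with sums of 1147 to 2345 in contralateral muscles, 738 to 1104 at 2 days and 943 to 1663 at 30 days, and their part in these results was not tested.

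**Figure D5:**
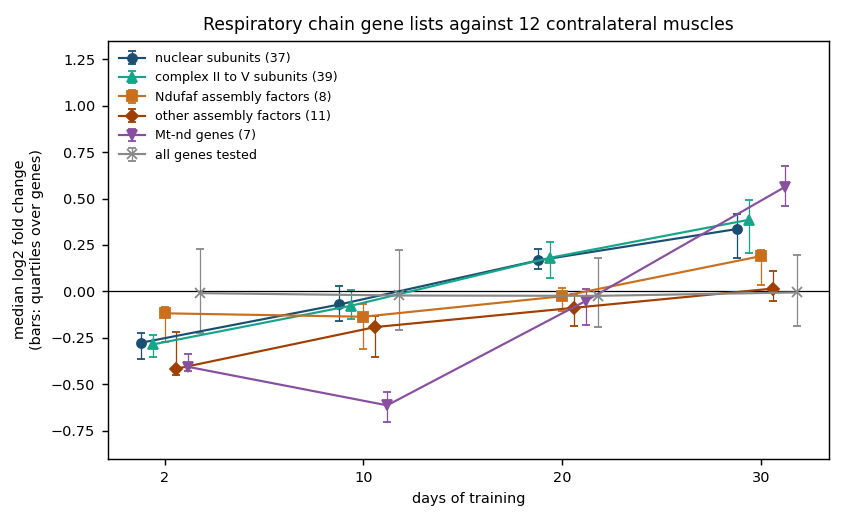
Median log2 fold change against contralateral muscle, with quartiles (y axis), at 2, 10, 20 and 30 days (x axis, as categories, different animals on each day) for complex I subunits, Ndufaf genes, other assembly factors, Mt-nd genes, complexes II to V and all genes. The medians of the complex I subunits run from -0.28 to 0.34, those of complexes II to V from -0.29 to 0.39, and those of all genes stay between -0.02 and -0.01.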

How the data were processed

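Poly-A RNA of 24 tibialis anterior samples was sequenced by the authors. In Partek Flow they trimmed the reads, ran STAR against the rat genome build Rnor_6.0 and counted by Ensembl transcript. The deposited values of 20027 transcripts are TPM-type. Every sample has a total of 634431, although the table's name speaks of normalized counts, so they keep no depth, and count models were not run. A gene-level table of unstated unit and a table of the authors' own comparisons (p-values, FDR, ratios, fold changes and least-squares means) were not used.

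Because the study's methods scale samples by median of ratios, such a factor was applied here to each sample (0.782 to 1.13, from 14549 transcripts above 0 in all samples, with values under 1e-06 taken as 0). Values were summed per gene, genes with at least 1 in at least 3 samples were kept (11203 of 15273), and limma 3.58.1 (R 4.3.3) was run on log2(value + 1) with 5 groups, 12 pooled contralateral muscles and 3 trained muscles per day. P-values were adjusted by Benjamini-Hochberg over all 11203 genes with a threshold of 0.05. Samples of a group are separate rats. The muscles of 1 rat carry the same animal number, and their deviations from the group means correlated with a median r of 0.174 over 12 pairs (0.0280 to 0.342), against -0.00994 over 132 pairs of different rats. A fit with animal as a block was run as an alternative. In that fit, contrasts between days compare the changes against the own contralateral muscles, not the trained muscles alone. Other alternatives were the values as deposited, contralateral muscles of the same day in a fit with 8 groups, a pseudocount of 0.1, no filter, the highest transcript per gene, a threshold of 0.01 and each sample left out. Transcripts of 1 locus per gene were added after seeing the data.

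Of 276 pairs of libraries, 0 were identical. On simulated data with 11203 genes, 200 genes were changed in the 30-day trained group in each of 10 draws. The comparison at 30 days recovered 49.9% of changes of 0.5 and 92.0% of changes of 1 on the log2 scale. Of its calls 5.35% were false. For 30 against 2 days these shares were 24.0%, 82.4% and 4.83%. The simulated noise was independent for each gene and muscle, without the correlation within rats. Far fewer genes were changed than were called in the data, so these shares are not estimates for the real calls.

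The members and all lists were chosen with earlier results of these data known. Given with values are the core subunits called, the 3 largest and 3 smallest changes among called subunits at a day, Ndufa4, Ndufa4l2, called Ndufaf genes, Mt-nd genes and called other assembly factors. Other genes named with values were chosen after their values were seen. The values of 1 member are not reported here, although it is part of the counts, medians and sums. Promoters are those of RefSeq (GRCr8). Python 3.11.15, numpy 2.4.6, pandas 2.3.3 and matplotlib 3.10.9 were used.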

Additional observations from a re-analysis of the deposited data

Results flagged for a closer look

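For 31 of the 45 genes, the difference between the training effect at 30 days and that at 2 days passed the limma test (adjusted p under 0.05), and all 31 were higher at 30 days. Both effects use the same 12 contralateral muscles, so this is the contrast of the trained muscles themselves. With animals as a block it is another quantity, the difference between changes against the own contralateral muscles. In that fit 7 of the 45 genes were called. On the log2 scale, the core subunits Ndufs3, Ndufs1 and Ndufv2 differed by 0.83, 0.74 and 0.63. Of the matrix-arm accessory subunits, Ndufv3 differed by 1.03, the Ndufs6 pseudogene row by 0.95, Ndufa9 by 0.86, Ndufa5 by 0.84, Ndufa12 by 0.75, Ndufs4 by 0.74, Ndufa2 by 0.66 and Ndufa6 by 0.65.

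Of the membrane-arm accessory subunits, the largest differences were 1.04 for Ndufb9, 0.93 for Ndufc1, 0.83 for Ndufb5, 0.75 for Ndufa3 and 0.73 for Ndufc2. Ndufs5, Ndufa10l1 and Ndufb10 differed by 0.68, 0.68 and 0.68, Ndufb11 by 0.64, Ndufb4 by 0.61, Ndufb3 by 0.60, Ndufb7 by 0.57, Ndufb6 by 0.54, Ndufb2 by 0.45 and Ndufa8 by 0.41. Ndufa4 differed by 0.75 and the acyl carrier Ndufab1 by 0.46. The assembly factors Ndufaf6 and Ndufaf1 differed by 0.60 and 0.46. No group of 4 to 10 samples was available for a test of outlying samples.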

How the results depend on the processing

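On the values as deposited, 7 subunits were lower at 2 days (11 in the fit as reported), 0 lower at 10 days (1) and 5 higher at 30 days (18), with a median change of 0.042 at 10 days (-0.07) and 0.12 at 30 days (0.34). Called Ndufaf genes were then 0 at 2 days (1), 1 at 10 days (2) and 1 at 30 days (0), and 16 genes were called at 30 against 2 days (31, all higher), 15 higher and Ndufaf8 lower. Over all genes, calls at 30 days were 647 higher and 2590 lower as deposited, against 1259 and 1066. At 30 against 2 days they were 250 higher and 3044 lower as deposited, against 782 and 904. Of 11262 genes, 731 were lower at 2 days and 682 at 10 days as deposited. With animals as a block, 9 subunits were lower at 2 days, 0 lower at 10 days, 4 higher at 20 days (2) and 4 higher at 30 days, the median at 20 days was 0.35 (0.17), and 7 genes were called at 30 against 2 days. Over all 11203 genes, the block fit called 1070 lower at 2 days, 1124 higher at 20 days and 816 higher at 30 days. It called 149 higher and 167 lower at 30 against 2 days. With contralateral muscles of the same day, the median at 20 days was 0.35, 4 subunits were higher at 30 days, 0 Ndufaf genes were called at 2 days and 14 genes at 30 against 2 days. A pseudocount of 0.1 or no filter left 0 subunits lower at 10 days. At a threshold of 0.01, 6 subunits were lower at 2 days, 0 higher and 0 lower at 10 days, 1 higher at 20 days and 7 higher at 30 days, with 0 Ndufaf genes at 2 days and 0 at 10 days.

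With each sample left out in turn, subunits called lower at 2 days ranged from 3 to 14, at 10 days from 0 to 3, and at 20 and 30 days were 0. Those called higher were 0 at 2 days, 0 to 1 at 10 days, 0 to 6 at 20 days and 3 to 19 at 30 days. The subunit medians ranged from -0.31 to -0.21, -0.13 to 0.016 (the latter without replicate 1 of the trained 10-day muscles), 0.07 to 0.23 and 0.26 to 0.37. Called Ndufaf genes ranged from 0 to 2 at 2 days, 0 to 3 at 10 days, 0 to 0 at 20 days and 0 to 1 at 30 days. Genes called ranged from 0 to 1 for 10 against 2 days, 20 to 31 for 30 against 2 days, and were 0 for 20 against 10 and 30 against 20 days. The cause of these shifts was not tested. Sequencing depth is unknown and limits the low genes, such as Ndufa4l2 and the Ndufaf genes, in a way that could not be measured.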
